A study of Bos taurus with 16 samples.

Results

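The comparison described here set the 3 agonists of peroxisome proliferator-activated receptors (PPAR), as 1 pooled treatment, against control in precision-cut liver slices of dairy cows. It used 12 of the 16 libraries of the series: for each of 3 cows (581, 576 and 567), 1 control library and 3 agonist libraries, so that 9 agonist libraries stood against 3 control libraries and every agonist library had a control from the same animal. A slice is a thin section of liver kept alive in culture medium, with its hepatocytes, macrophages, vessels and connective tissue in place. Every test of the pooled contrast has 3 control and 9 agonist libraries from 3 animals. The slices came from primiparous Jersey cows soon after calving and were kept in William's Medium E for 18 h with WY-14643 at 100 µM (an agonist of PPARα), GW-501516 at 50 µM (PPARδ) or rosiglitazone at 100 µM (PPARγ); control slices had 0.8% DMSO and no agonist and are labelled untreated. Each agonist was used at 1 dose, the doses were not equal, and the controls of a cow serve all 3 agonists, so a deviation of 1 control library enters every estimate. The 4 libraries of cow 574, which the study removed for the integrity of its RNA, stayed out of the main tests. Of 28786 gene names, 19824 had more than 4 counts in at least 1 of the 12 libraries and made up the tested set.

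PPARs are nuclear receptors that bind fatty acids and, paired with a retinoid X receptor, switch on genes of fatty acid uptake, oxidation and storage. PPARα is the isotype best known from liver, where in rodents it drives peroxisomal and mitochondrial oxidation of fatty acids and ketone body synthesis. PPARδ is found in most tissues, and PPARγ is best known from adipose tissue and macrophages, where ligand binding also lowers inflammatory gene expression. In dairy cows the weeks after calving bring a surge of fatty acids from body fat to the liver.

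The libraries differed in depth and make-up. The controls held 3081981 to 4026365 gene counts and the agonist libraries 3675309 to 10227330; the mean difference of 2884856 counts had an exact permutation p of 0.0938 (control label moved among the 4 libraries of each cow, 64 arrangements, two-sided, smallest possible p 0.0156). The 3 deepest libraries, WY-14643 of cows 581 and 567 and GW-501516 of cow 581, are also the 3 whose descriptions carry an extra mark of unstated meaning, and no control carries it. They held 8215399 to 10227330 gene counts, against 3675309 to 6143418 in the other 6 agonist libraries. The ribosomal RNA gene RN18S1 took 37.2 to 45.9% of the gene counts in controls and 11.9 to 63.8% in agonist libraries, with 11.9 to 16.4% in the 3 marked ones and 33.2% or more in the others (difference of the means -9.13 percentage points, exact permutation p = 0.219). The library labelled GW-501516 of cow 576 stood apart with the highest RN18S1 share and the fewest detected genes, 9993 against 14941 or more in the other agonist libraries. At equal depth the agonist libraries detected 722.67 more genes on average (exact permutation p = 0.531). The control of cow 581 was the shallowest library, with 1668896 counts outside RN18S1. In the WY-14643 library of cow 576 the summed markers of hepatocytes were the lowest of all 12 libraries (2993 CPM, counts scaled to a common library size) and those of macrophages (2294 CPM), neutrophils (2170 CPM) and stellate cells (4946 CPM) the highest, so this library stood apart as well. Counts by gene list are therefore given with their lowest and highest value over the 12 fits that left out 1 library, and without the 3 marked libraries together. Albumin (ALB), the main protein product of hepatocytes, was at 807 to 2376 CPM in controls and 539 to 5302 CPM in agonist libraries.

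With cow as a block and 1 coefficient for each agonist, edgeR's quasi-likelihood test of the agonist mean against control called 646 genes (3.26% of those tested) at a Benjamini-Hochberg adjusted p under 0.2, the threshold of the study. Of these, 391 were higher (1.97%) and 255 lower (1.29%) with the agonists. Among the 8212 genes with a mean of at least 50 counts, 350 were called higher (4.26%) and 212 lower (2.58%). The shares of all tested genes set beside the lists below are therefore low for lists of well-counted genes. Ribosomal protein genes, for example, had a median of 3391 mean counts against 27.7 over all tested genes. At an adjusted p under 0.05 there were 274 genes (1.38%), 176 of them higher (0.888%) and 98 lower (0.494%), and an unadjusted p under 0.05 was seen for 1921 (9.69%). At an adjusted p under 0.2, the single agonists against the same controls gave 532 genes with WY-14643 (2.68%), 402 with GW-501516 (2.03%) and 567 with rosiglitazone (2.86%). The median log2 fold change over all tested genes was 0.14, so a list or gene near that value did not move relative to the rest. Among the 391 genes called higher, 167 (42.7%) were above the own control in all 9 agonist libraries, against 543 of all tested genes (2.74%). Of the 255 called lower, 108 (42.4%) were below it in all 9, against 544 (2.74%). The genes were called from these same differences and the 9 libraries share 3 controls, so these higher shares follow from the selection and are no separate support. Of the called genes, 70 carried locus numbers or names turned into dates and are not named here, and 25 of those called higher had no count in any control.

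The size of this set depended on single libraries and on the model. edgeR estimated an infinite prior degree of freedom, so that every gene was given the spread of the trend and none of its own. With the newer default of the same tool (legacy=FALSE) 400 genes passed, without the cow block 129, with limma voom 211 and with DESeq2 1142. The SE and p of single genes below come from the main fit and so leave out each gene's own spread. For IGFBP1 the adjusted p was 2.9e-15 there, 0.0095 with legacy=FALSE and 0.17 with limma voom. Of the 646 genes, 161 also passed with limma voom. ISG20 (0.22), STRIP2 (0.26), CXCL2 (0.42) and CYP2C18 (0.45) did not, while SLAMF7 (0.00089) and CYP3A4 (0.011) did. Without the control of cow 581 the count fell from 646 to 109, without the GW-501516 library of cow 576 it was 1549 and without the WY-14643 library of cow 576 it was 1106. It was 327 without the control of cow 567, and 294 and 270 without the WY-14643 libraries of cows 581 and 567. Without the 3 marked libraries together 87 genes passed, and of 106 called genes examined singly 42 did, 21 higher and 21 lower; these fits also had fewer samples. The share called higher was 60.5% here, 49.4% after RLE scaling, 44.8% after upper quartile scaling, 43.5% with legacy=FALSE and 73.2% with 1 term for any agonist, so the excess of higher over lower genes is not a stable feature. Of the 646 genes, at least 639 kept the sign of their fold change in every alternative that tested all of them. These genes were called from the same libraries that the alternatives refit, so kept signs do not test whether the direction is stable. Of the 646, 67 genes passed in all 12 fits that left out 1 library (48 higher and 19 lower, 9 of them with locus numbers), and 17 passed in all 33 alternatives.

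**Figure D1:**
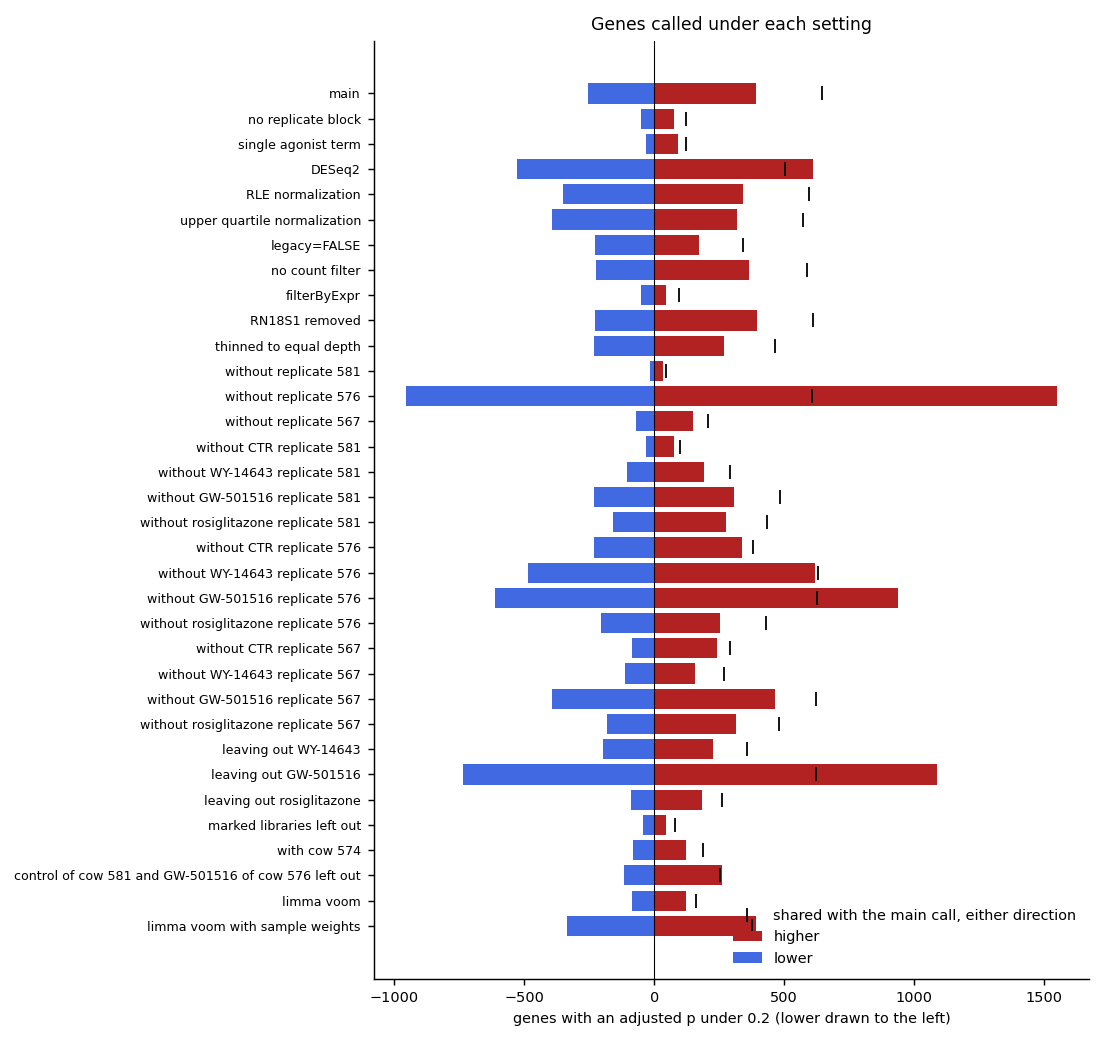
Genes with an adjusted p under 0.2 (x axis, count; higher to the right in red, lower to the left in blue) under the main fit and each of the 33 alternatives (y axis), with a black tick for the number shared with the main fit. The main fit called 646 genes; the fits without cow 581 and without cow 576 called 48 and 2505.

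Of the 17 genes that passed every alternative, 12 have names: IGFBP1, LBP, CYP3A4, TRIB3, TES and FMN1 rose, and SLAMF7, HMOX1, CTSS, NES, MMP19 and STC1 fell. TES, FMN1, NES, MMP19 and STC1 lie outside the rule for named genes and were chosen after their values were seen. IGFBP1, a liver-secreted protein that binds insulin-like growth factors, had the smallest p among named genes that rose. Its controls were at 73.6, 49.4 and 102 CPM (cows 581, 576 and 567) and the agonist libraries at 107 to 876 CPM, median 531. The groups did not overlap, although the lowest agonist library lay close to the highest control, and the log2 fold change was 2.65 ± 0.30 (SE; edgeR adjusted p = 2.9e-15). LBP, which binds bacterial lipopolysaccharide in plasma, was at 31.4, 25.1 and 56.8 CPM in controls and at 63.7 to 308 CPM with agonists, median 218. All 9 agonist libraries were above all 3 controls (log2 fold change 2.35 ± 0.33, adjusted p = 1.3e-09). CYP3A4, a cytochrome P450 that oxidizes drugs and steroids, had controls close to each other, 84.3, 99.1 and 91.3 CPM, against 196 to 560 CPM with agonists, median 285. Its agonist libraries again lay wholly above the controls (1.83 ± 0.29, adjusted p = 2.3e-07), and the 3 agonists gave nearly equal estimates of 1.95, 1.81 and 1.75 for WY-14643, GW-501516 and rosiglitazone.

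TRIB3, a pseudokinase induced when amino acids are short or protein folding fails, was at 35.0, 29 and 66.6 CPM in controls and at 41.8 to 350 CPM with agonists, median 124 (1.73 ± 0.33, adjusted p = 4.6e-05); each of the 9 libraries was above its own control although the ranges overlapped. TES, a protein of cell adhesion sites, went from 98.7, 51.3 and 68.0 CPM to a median of 220 CPM (range 57.8 to 554; 1.53 ± 0.30, adjusted p = 0.00012). FMN1, a formin that assembles actin filaments, went from 11.5, 6.98 and 7.83 CPM to a median of 45.9 CPM with no overlap (15.8 to 71.3 CPM; 2.33 ± 0.47, adjusted p = 0.00024).

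Among the genes that fell, SLAMF7, a receptor of natural killer cells, plasma cells and macrophages, had the smallest p: 576, 551 and 355 CPM in controls against 57.8 to 272 CPM with agonists, median 124. No agonist library reached the lowest control (log2 fold change -1.94 ± 0.25, adjusted p = 1.1e-11). HMOX1, which degrades haem, was at 1410, 753 and 530 CPM in controls and at 58.1 to 447 CPM with agonists, median 279. Its groups did not overlap either (-1.72 ± 0.23, adjusted p = 2.2e-10). CTSS, a lysosomal protease of antigen-presenting cells, was at 956, 1023 and 806 CPM in controls and had a median of 314 CPM with agonists, but its range ran from 105 to 1383 CPM. The WY-14643 library of cow 576 was above its control and the other 8 libraries below theirs (-1.49 ± 0.22, adjusted p = 3.3e-08). NES, an intermediate filament of stellate and endothelial cells, fell by 1.40 ± 0.26 on the log2 scale (adjusted p = 3.1e-05), from 247, 327 and 318 CPM to a median of 106 CPM. MMP19, a secreted matrix protease, fell by 1.68 ± 0.32 (adjusted p = 7.3e-05), and STC1, a secreted glycoprotein hormone, by 1.28 ± 0.25 (adjusted p = 0.00012). For NES, MMP19 and STC1, all 9 libraries were below their own control while the ranges over cows overlapped.

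**Figure D2:**
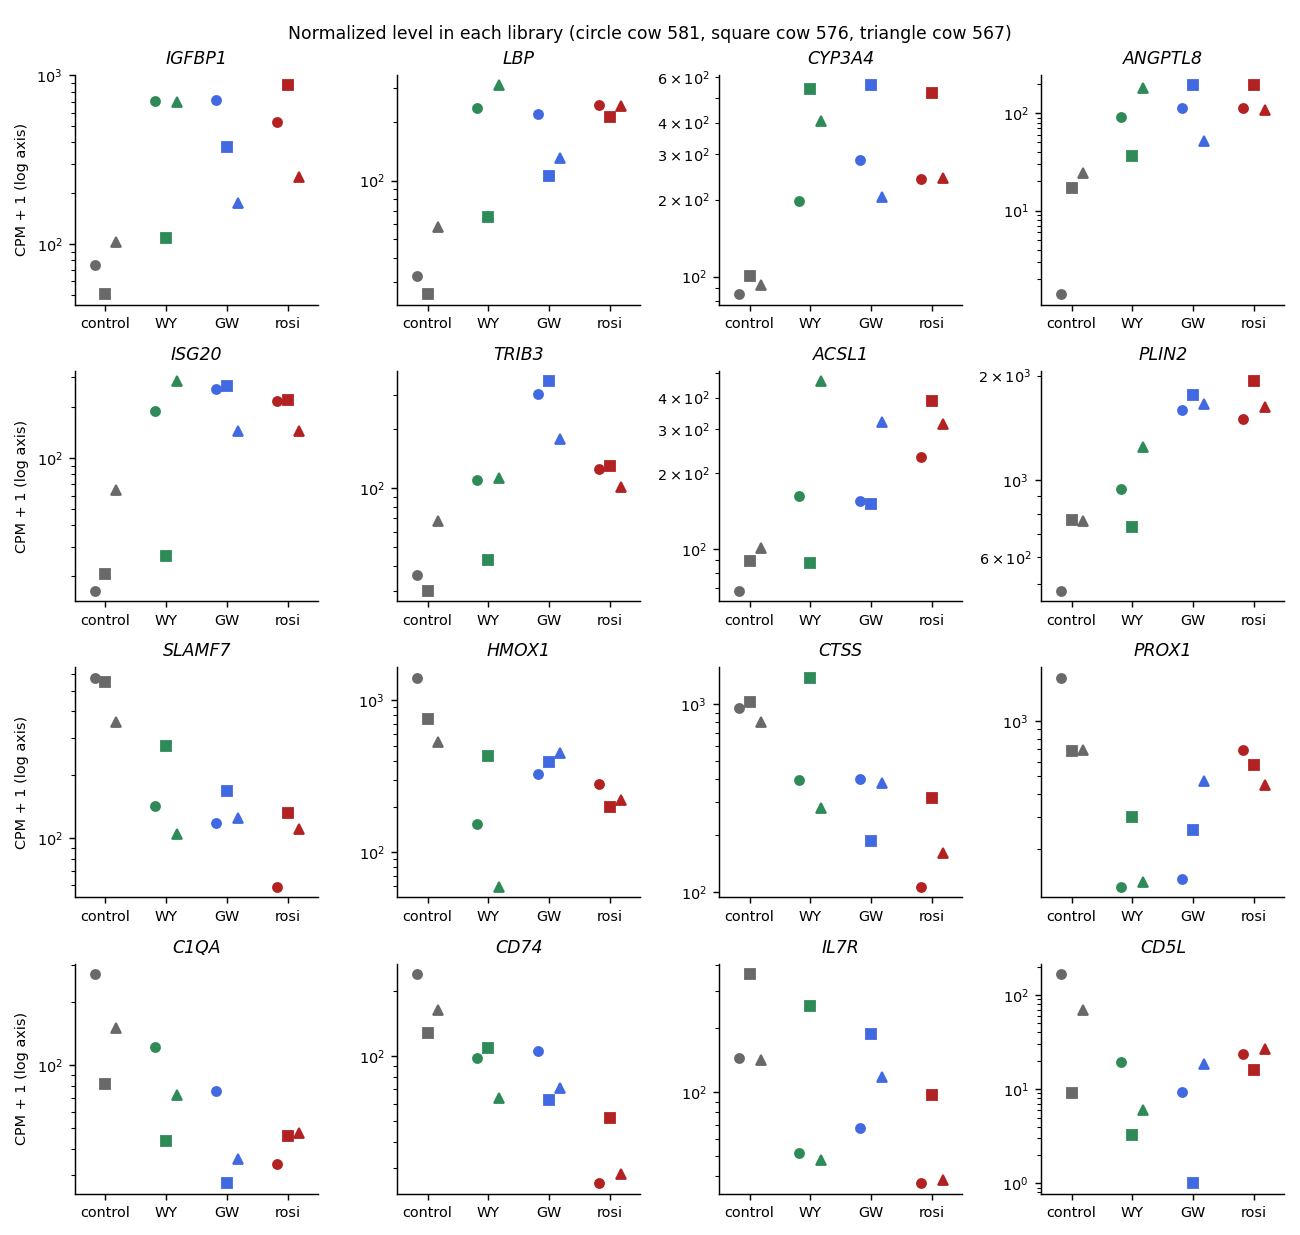
Normalized level (CPM + 1, log axis) of 16 genes in each of the 12 libraries, by treatment (control, WY-14643, GW-501516, rosiglitazone) and cow (circle 581, square 576, triangle 567). IGFBP1, LBP, CYP3A4 and ANGPTL8 lay above all controls in the 9 agonist libraries, SLAMF7, HMOX1 and CD74 lay below all controls, and for CTSS the WY-14643 library of cow 576 (1383 CPM) was the highest of all.

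The largest fold changes belonged to genes with few counts in controls. ANGPTL8, a secreted protein of liver and fat that curbs lipoprotein lipase, combined a large change with a small p: 0.398, 15.9 and 23.5 CPM in controls against 35.7 to 193 CPM with agonists, median 112 (3.34 ± 0.39, adjusted p = 9.1e-14). It kept its call in each fit without 1 library, and with limma voom its adjusted p was 0.27. FGFRL1, a receptor for fibroblast growth factors that lacks a kinase, had 6 control counts in all and an estimate of 4.89 ± 0.97 (adjusted p = 0.00018), with agonist libraries at 3.02 to 25.2 CPM. MTX2, a protein of the mitochondrial outer membrane, had 3 control counts, and the ratio of its pooled counts was 48.5 (95% interval 16.6 to 236, counting error only); without the control of cow 581 its adjusted p was 0.53. PLA2G12A, a secreted phospholipase, was at 0, 3.63 and 8.81 CPM in controls and at 19.1 to 81.3 CPM with agonists (3.15 ± 0.57, adjusted p = 2e-05). ISG20, an exonuclease induced by interferon, rose 2.67 ± 0.34 (adjusted p = 1.1e-11), from 15.5, 19.5 and 64.1 CPM to a median of 215 CPM, and CTSV, a lysosomal protease, rose 2.24 ± 0.31 (adjusted p = 1.4e-09). STRIP2 rose 3.00 ± 0.47 (adjusted p = 1.2e-07) and MOSPD1 2.89 ± 0.67 (adjusted p = 0.0029). Without cow 581, FGFRL1, MTX2, PLA2G12A and MOSPD1 missed the threshold, while ANGPTL8, ISG20, CTSV and STRIP2 kept their call. Without the 3 marked libraries FGFRL1, STRIP2 and MOSPD1 missed the threshold, with estimates of 3.86, 1.89 and 2.44 (adjusted p = 0.73, 0.21 and 0.77). LRRC1 (4.05), CLDN14 (3.93) and MLIP (3.62) also rose, but without the control of cow 581 their adjusted p were 0.37, 0.29 and 0.47; CLDN14 also missed without the WY-14643 library of cow 567 (0.23) and MLIP without the control of cow 567 (0.30).

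Of the genes with the largest decreases, CXCL9, a chemokine that draws T cells, fell by 3.17 ± 0.74 (adjusted p = 0.0034), from 40.6, 3.07 and 26.9 CPM to a median of 3.33 CPM. RASGEF1A and RASGRP3, exchange factors of Ras-family GTPases, fell by 2.75 ± 0.59 (adjusted p = 0.00072) and 2.34 ± 0.50 (adjusted p = 0.0007), and DBP, a clock-controlled transcription factor, fell by 2.19 ± 0.54 (adjusted p = 0.0062) from 57.7, 27.9 and 32.1 CPM to 3.66 to 22.4 CPM without overlap. Lying below the own control in all 9 libraries was a condition of the rule that named these 4 genes. Without the control of cow 581 their adjusted p were 0.45, 0.30, 0.56 and 0.85. PROX1, a transcription factor of hepatocytes and lymphatic vessels, fell by 1.73 ± 0.23 (adjusted p = 2.2e-10); its control of cow 581 stood at 1716 CPM against 683 and 690 CPM in the other controls, and without it the estimate was -0.98 (adjusted p = 0.19).

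No gene of the receptors and few genes of fatty acid oxidation passed. None of the 17 tested genes of PPARs, retinoid X receptors and coregulators passed (median log2 fold change -0.35), and PPARA itself was at 16.3, 34.0 and 46.5 CPM in controls and 12.0 to 24.4 CPM with agonists (-0.86 ± 0.49, adjusted p = 0.62). RXRA, the common partner of PPARs, gave -0.40 ± 0.35. Of 23 genes of mitochondrial fatty acid oxidation 2 rose (8.70%, against 1.97% of all tested genes) and none fell (median 0.05): HADHB, a subunit of the trifunctional protein (1.65 ± 0.34, adjusted p = 0.00037), from 9.15, 58.9 and 55.5 CPM to 59.1 to 243 CPM, and ACADVL, the very long-chain acyl-CoA dehydrogenase (1.24 ± 0.30, adjusted p = 0.005). Both missed the threshold without the control of cow 581 (adjusted p = 0.49 and 0.53). Over the fits without 1 library 0 to 3 genes of this list rose. No gene passed among 17 of peroxisomal oxidation (median -0.10) or 6 of ketone body synthesis (median 0.25, or -0.22 with genes that had no control count set to their bound). CPT1A, the gatekeeper of mitochondrial fatty acid entry, was at 139, 212 and 111 CPM in controls and had a median of 91.8 CPM with agonists (-0.54 ± 0.28, adjusted p = 0.54), while without the WY-14643 library of cow 576 its estimate of -0.72 passed (adjusted p = 0.19). PDK4, a kinase that restrains glucose oxidation, gave 0.12 ± 0.26, and ANGPTL4, an inhibitor of lipoprotein lipase, 0.07 ± 0.29. Neither passed. RXRA, CPT1A, PDK4 and ANGPTL4 were chosen after their values were seen.

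Among genes for lipid handling outside oxidation, PLIN2, ACSL1, LIPC, CREB3L3, VNN1 and SCD rose and FABP5 and LIPA fell. PLIN2, the coat protein of lipid droplets, went from 479, 764 and 761 CPM to a median of 1586 CPM, with 8 of 9 libraries above their own control (1.08 ± 0.23, adjusted p = 0.00088; without the control of cow 581 the estimate was 0.92 and the adjusted p 0.25). ACSL1, which couples fatty acids to coenzyme A, went from 67.2, 88.7 and 99.4 CPM to a median of 231 CPM (1.46 ± 0.29, adjusted p = 0.00024) and kept its call without each library. LIPC, hepatic lipase, rose 2.42 ± 0.57 (adjusted p = 0.0042; 0.37 without the control of cow 581), and CREB3L3, a hepatic transcription factor of lipid metabolism, 1.35 ± 0.35 (adjusted p = 0.011; 0.49 without that library). VNN1, a pantetheinase and PPARα target in mice, rose 1.27 ± 0.31 (adjusted p = 0.0062) but not without the control of cow 576 (0.23) or its rosiglitazone library (0.26). SCD, the stearoyl-CoA desaturase, rose 1.80 ± 0.42 (adjusted p = 0.0035) and was above the own control in all 9 libraries. FABP5, a fatty acid carrier, fell by 1.41 ± 0.34 (adjusted p = 0.0044), and LIPA, the lysosomal acid lipase, by 1.16 ± 0.31 (adjusted p = 0.021). FABP5 missed without the control of cow 576 (0.54), where it stood at 274 CPM against 35.0 and 35.7 CPM in the other controls, and LIPA without the control of cow 581 (0.43) or 567 (0.30). By list, against 1.97% of all tested genes called higher and 1.29% called lower, 2 rose and 1 fell of 19 genes of lipid droplets and lipases, 2 rose and 1 fell of 20 of uptake and activation, 3 rose of 17 other PPAR-responsive genes and 2 of 23 of fatty acid and triacylglycerol synthesis. Over the fits without 1 library, 0 to 5, 1 to 2, 1 to 4 and 1 to 5 rose. The highest counts for lipid droplets (5) and other PPAR-responsive genes (4) came without the GW-501516 library of cow 576 and that for synthesis (5) without the WY-14643 library of cow 576, while without the control of cow 581 none, 1, 1 and 2 rose. Without the marked libraries 1, 1, 0 and 0 rose, with PLIN2 (0.85, adjusted p = 0.025) and ACSL1 (1.05, adjusted p = 0.032) still past the threshold.

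Many genes for products of the hepatocyte rose, though few did without the 3 marked libraries. Of 24 hepatocyte markers 11 rose and none fell (45.8%, against 1.97% of all tested genes; median 0.72), 5 of 17 apolipoprotein genes rose (median 0.83), as did 7 of 21 cytochrome P450 and xenobiotic genes (median 0.48), 4 of 21 acute phase genes (median 0.40) and 3 of 24 genes of cholesterol synthesis (median 0.61), with none lower in any of these lists. APOA4, an apolipoprotein of the liver and gut, went from 49.3, 22.6 and 58.7 CPM to a median of 137 CPM (1.76 ± 0.33, adjusted p = 3.4e-05). TTR, which carries thyroid hormone, rose 1.44 ± 0.29 (adjusted p = 0.00031), and AMBP, the precursor of a protease inhibitor, 1.32 ± 0.25 (adjusted p = 4e-05). CYP2C18 rose 2.08 ± 0.39 (adjusted p = 3.4e-05) and CYP2E1, which oxidizes ethanol, 1.28 ± 0.32 (adjusted p = 0.0092); CYP4A11, a fatty acid hydroxylase and PPARα target, had an estimate of 1.26 ± 0.44 (adjusted p = 0.15), missed in 7 of the 12 fits without 1 library (adjusted p up to 0.99) and was named after its value was seen. GLDC, the glycine decarboxylase, went from 10.7, 13.4 and 18.1 CPM to a median of 82.2 CPM (2.28 ± 0.40, adjusted p = 9.8e-06). Not all hepatocyte genes moved: ALB, named after its value was seen, gave 0.57 ± 0.22 (adjusted p = 0.24), but passed without the WY-14643 library of cow 576 (0.72, adjusted p = 0.025) or the GW-501516 library of cow 567 (0.66, adjusted p = 0.099). In the WY-14643 library of cow 576 APOA4 and GLDC were below the own control while all other agonist libraries were above it. Without the control of cow 581, 3 hepatocyte markers, 1 apolipoprotein gene, 2 cytochrome P450 genes, 1 acute phase gene and no gene of cholesterol synthesis rose, and among the genes named here AMBP (0.25) and CYP2E1 (0.43) missed the threshold; without the WY-14643 library of cow 576, 15 hepatocyte markers and 7 apolipoprotein genes rose. Without the control of cow 576, 4 hepatocyte markers, 3 apolipoprotein genes and 3 cytochrome P450 genes rose, and CYP2E1 missed (0.23). Without the WY-14643 library of cow 567, 1 apolipoprotein gene, 3 cytochrome P450 genes and 1 gene of cholesterol synthesis rose, and without the GW-501516 library of cow 576 the count for cholesterol synthesis was 7. Without the 3 marked libraries none of the hepatocyte markers rose and their median was 0.08; 1 cytochrome P450 gene, 1 acute phase gene and no apolipoprotein or cholesterol synthesis gene passed. The estimates of APOA4, TTR, AMBP and CYP2E1 were then 0.80, 0.51, 0.57 and 0.05, while CYP3A4 kept 1.82 (adjusted p = 4.9e-08).

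Genes for protein folding in the endoplasmic reticulum and the cytosol rose. Of 24 genes of the unfolded protein and amino acid stress response 11 rose and none fell (45.8%, against 1.97% of all tested genes called higher; median 0.61), and of 20 heat shock genes 7 rose (35.0%; median 0.36). DNAJB9, a cochaperone of the endoplasmic reticulum, was above the own control in all 9 libraries (21.1, 22.6 and 35.7 CPM in controls, median 85.9 CPM with agonists; 1.91 ± 0.35, adjusted p = 3e-05), and so was PDIA4, a disulfide isomerase (1.79 ± 0.34, adjusted p = 7.9e-05). HSPB8 and CRYAB, small heat shock proteins, rose 2.13 ± 0.32 (adjusted p = 3e-08) and 1.53 ± 0.23 (adjusted p = 5.6e-08), CRYAB from 789, 503 and 787 CPM to a median of 2166 CPM. HSPA1A, the inducible HSP70, rose 1.10 ± 0.24 (adjusted p = 0.00083), over a wide range of 136 to 4472 CPM, and missed without the control of cow 581 (0.67). The metallothioneins MT1A and MT1E, which bind zinc and copper, rose 1.66 ± 0.24 (adjusted p = 8.4e-09) and 1.53 ± 0.26 (adjusted p = 1.6e-06); MT1A was above its own control in 9 of 9 libraries, but its control levels of 966, 170 and 311 CPM differed widely between cows. Metallothionein copies are similar in sequence and their counts may be shared. Over the fits without 1 library, 4 to 11 unfolded protein response genes and 2 to 9 heat shock genes rose, the lowest counts without the control of cow 581; without the control of cow 567 and the WY-14643 library of cow 567 the first were 5 and 6. Without the marked libraries 3 and 1 rose; the estimate of DNAJB9 was 1.36 (adjusted p = 0.089), that of HSPB8 1.16 (adjusted p = 0.025) and that of CRYAB 0.45 (adjusted p = 1).

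In the pooled contrast, genes of macrophages, lymphocytes and antigen presentation fell. None of 21 macrophage markers rose and 7 fell (33.3%, against 1.29% of all tested genes; median -0.97), and the estimate was negative for all 21. Of 11 tested genes of MHC class II 5 fell (median -1.18), of 24 lymphocyte markers 4 fell (median -1.02, or -1.19 with genes at 0 in control set to their bound), and 1, ZAP70, was called higher with no count in any control. The list medians were not alike for the agonists. For WY-14643, GW-501516 and rosiglitazone in turn they were -0.50, -1.39 and -1.44 for macrophage markers. For class II they were -0.0025, -1.29 and -2.29, and for lymphocyte markers -0.66, -0.84 and -1.19. Differences between these medians were not tested. In bulk slices, fewer cells of a type and less RNA per cell cannot be told apart. C1QA, a subunit of complement C1q made by macrophages, was at 270, 80.7 and 149 CPM in controls and at 26.4 to 121 CPM with agonists, median 44.9, and each library was below its own control (-1.56 ± 0.29, adjusted p = 4.6e-05). C1QC fell by 1.83 ± 0.34 (adjusted p = 3e-05). CD5L, a macrophage-secreted protein, fell by 2.36 ± 0.42 (adjusted p = 1.1e-05), but its controls ranged from 8.09 to 166 CPM and without the control of cow 581 its adjusted p was 0.56. CD74, the invariant chain of MHC class II, went from 240, 128 and 163 CPM to a median of 62.8 CPM without overlap (-1.51 ± 0.29, adjusted p = 6.1e-05), and BOLA-DRB3, a class II chain with near-identical copies, fell by 1.18 ± 0.26 (adjusted p = 0.00084). IL7R, the interleukin 7 receptor of T cells, was below the own control in all 9 libraries (-1.29 ± 0.27, adjusted p = 0.00056). PTPRC, the common leukocyte antigen CD45, fell by 1.22 ± 0.28 (adjusted p = 0.0029) but missed without the control of cow 581 (0.45). Over the fits without 1 library, 2 to 9 macrophage markers, 2 to 5 class II genes and 2 to 6 lymphocyte markers fell. The lowest counts came without the control of cow 581, and the macrophage count was 3 without the control of cow 567 and 4 without the WY-14643 library of cow 567 or the rosiglitazone library of cow 581. Class II also gave 2 without the control of cow 567 or the rosiglitazone library of cow 581. Without the marked libraries 3 fell in each of these lists, with medians of -1.39 for macrophages and -1.49 for class II, and C1QA (-1.83, adjusted p = 9.1e-05) and CD74 (-1.49, adjusted p = 0.0013) still passed.

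Summed levels of the same marker lists are given here by library. They come from the same counts as the list results and are no separate support. The macrophage sum was 915 to 1693 CPM in controls and 320 to 2294 CPM with agonists, and the highest value belonged to the WY-14643 library of cow 576, with the other agonist libraries at 954 CPM or less. The lymphocyte sum was 726 to 1176 CPM in controls and 156 to 808 CPM with agonists. The sum of hepatocyte markers was 3400 to 9099 CPM in controls and 2993 to 17474 CPM with agonists, so the ranges over cows overlapped for each of these sums. The endothelial sum was 671 to 910 against 293 to 908 CPM, that of stellate cells 1028 to 2814 against 414 to 4946 CPM and that of bile duct cells 394 to 513 against 318 to 583 CPM. Against the own control, the lymphocyte sum was lower in 9 of 9 agonist libraries, the macrophage, neutrophil and endothelial sums in 8 and the stellate cell sum in 7, while the hepatocyte sum was higher in 6 of 9 and the bile duct sum in 5. The part of cell make-up in the gene changes was not tested.

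**Figure D3:**
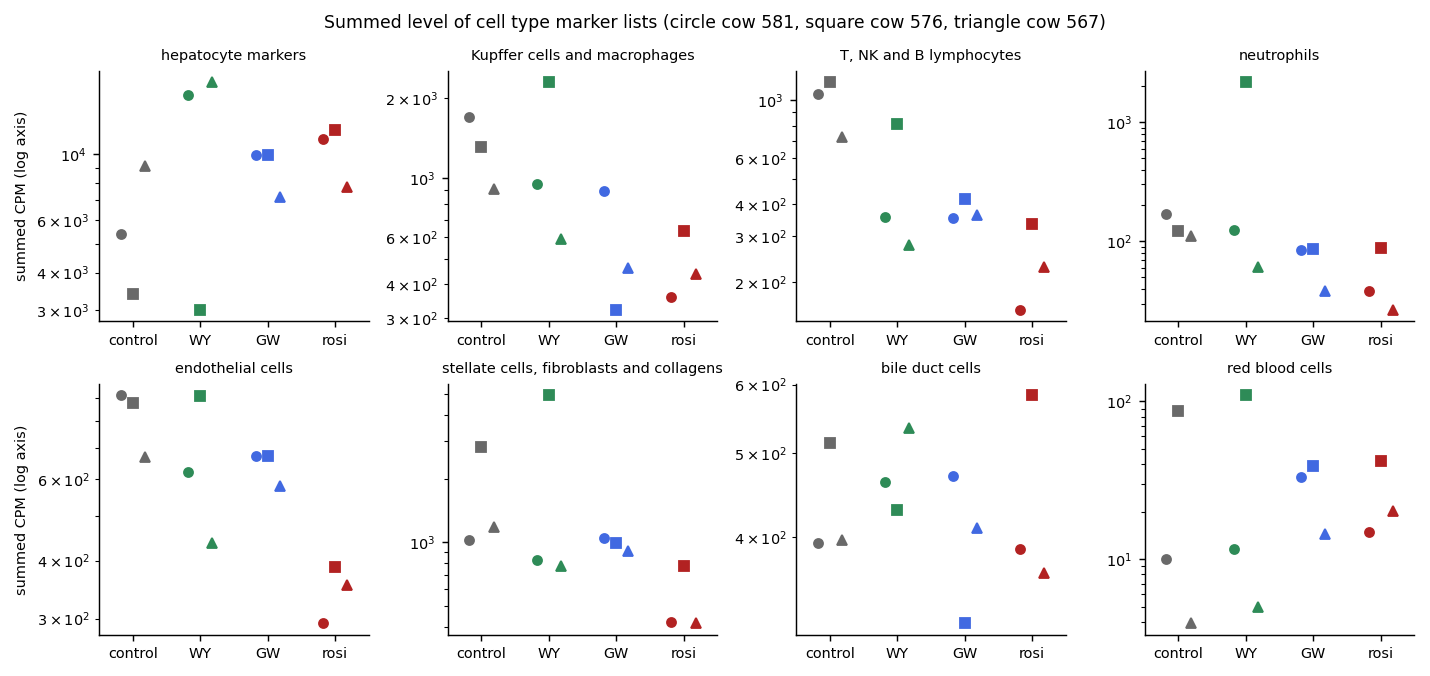
Summed CPM (log axis) of 8 cell type marker lists in each of the 12 libraries, by treatment and cow (circle 581, square 576, triangle 567). The WY-14643 library of cow 576 has the highest sums of macrophage (2294 CPM), neutrophil (2170 CPM) and stellate cell (4946 CPM) markers among the agonist libraries and the lowest hepatocyte sum (2993 CPM).

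Genes of vessels and connective tissue also fell where they passed. Of 25 genes of stellate cells, fibroblasts and collagens 5 fell (20.0%, against 1.29% of all tested genes called lower; median -0.72) and of 23 endothelial genes 3 (13.0%; median -0.41), with none higher in either list. For WY-14643, GW-501516 and rosiglitazone in turn, the median of the stellate list was -0.03, -0.35 and -0.96. That of the endothelial list was -0.17, -0.35 and -1.12. PECAM1, an adhesion protein of endothelium, went from 309, 339 and 232 CPM to a median of 85.8 CPM (-1.41 ± 0.26, adjusted p = 4e-05; 0.57 without the control of cow 581). TIMP1, an inhibitor of matrix proteases, fell by 1.36 ± 0.27 (adjusted p = 0.00016), with 15.7 to 676 CPM among agonist libraries against 177, 223 and 140 CPM in controls. Over the fits without 1 library 1 to 6 genes of the stellate list and 0 to 4 of the endothelial list fell, the lowest counts without the control of cow 581, and 1 of each without the marked libraries or without the control of cow 567.

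Chemokine and cytokine genes were called in both directions, and the called members of the interferon and MHC class I list all fell. ISG20, the interferon-induced exonuclease named above, is not in that list and rose. Of 33 chemokines and cytokines 3 rose and 4 fell, against 1.97% and 1.29% of all tested genes, and the balance turned with the libraries: 2 rose and 8 fell without the WY-14643 library of cow 576, 4 and 7 without the GW-501516 library of cow 576, 2 and 1 without the control of cow 581 or 567, 4 and 1 without the WY-14643 library of cow 581 or 567, and 5 and none without the marked libraries. CXCL2 and CXCL8, which attract neutrophils, rose 2.14 ± 0.33 (adjusted p = 5.9e-08) and 1.42 ± 0.27 (adjusted p = 6.4e-05); CXCL8 was above the own control in all 9 libraries. Of 30 interferon response and MHC class I genes 5 fell (median -0.30), and over the fits without 1 library 0 to 6, with none without the control of cow 581 or 567, the WY-14643 library of cow 581 or the marked libraries. The median of the interferon and MHC class I list was 0.38 with WY-14643, -0.30 with GW-501516 and -0.99 with rosiglitazone. S100A8, a calcium-binding protein of neutrophils, had an estimate of 2.26 ± 0.48 (adjusted p = 0.00063) that varied with single libraries. The WY-14643 library of cow 576 held 582 CPM against a median of 6.31 CPM over the agonist libraries, and without it the estimate was 1.71 (adjusted p = 0.57). It also missed without the control of cow 576 (0.31) or 567 (0.28), and without the control of cow 581 the estimate was 4.14 (adjusted p = 3.5e-05). Among immediate early genes 2 of 26 fell, ARC (-1.40 ± 0.32, adjusted p = 0.0028) and NR4A3 (-1.96 ± 0.64, adjusted p = 0.11); NR4A3 missed in 7 of the 12 fits without 1 library, with adjusted p up to 0.79.

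Lists of energy and growth genes had few called members, with counts that moved with single libraries. PKM, the pyruvate kinase of non-hepatocyte cells, fell by 1.25 ± 0.26 (adjusted p = 0.00038; 0.49 without the control of cow 581). DNMT3A, a DNA methyltransferase, fell by 1.49 ± 0.30 (adjusted p = 0.00022; 0.96 without that control), and it was the 1 called gene of 16 in the chromatin list. Of 75 cytosolic ribosomal protein genes 7 rose (9.33%, against 1.97% of all tested genes; median 0.38); none did without the control of cow 581, the WY-14643 library of cow 567 or the marked libraries, and 16 did without the WY-14643 library of cow 576 and 13 without the GW-501516 library of cow 576. Of 49 nuclear subunits of oxidative phosphorylation 1 was called, NDUFA2, which had no control count and was at least 31.9-fold higher (floor of 3 counts over the control group) but missed in 5 of the 12 fits without 1 library (adjusted p up to 0.72); 46 of the 49 estimates were positive (median 0.47). Without the GW-501516 library of cow 576, 14 of the 49 rose, without the WY-14643 library or the control of that cow 7, and without the control of cow 581 or the marked libraries none. Of 13 mitochondrially encoded genes 1 fell, ATP8 (-0.60 ± 0.19, adjusted p = 0.084), and without the control of cow 581 its estimate was -0.10; it missed in 6 of the 12 fits without 1 library. In the remaining lists, 2 of 15 bile acid genes, 1 of 15 genes of gluconeogenesis and glycogen, 2 of 19 junction genes and 1 of 15 bile duct genes rose; the bile acid count was 5 without the GW-501516 library of cow 576 and 0 without the control of cow 581. Of 17 hepatocyte transcription factors 2 rose and 2 fell (median 0.14, or -0.08 with genes at 0 in control set to their bound), of 33 antioxidant genes 3 rose and 2 fell, of 27 genes of glycolysis and hypoxia 1 rose and 2 fell, and of 25 genes of urea and amino acid metabolism 1 rose and 1 fell. Of 19 clock genes 1 rose and 1 fell, of 11 neutrophil genes 1 rose and 1 fell, of 27 cell cycle genes 1 fell, and of 5 red cell genes none passed.

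**Figure D4:**
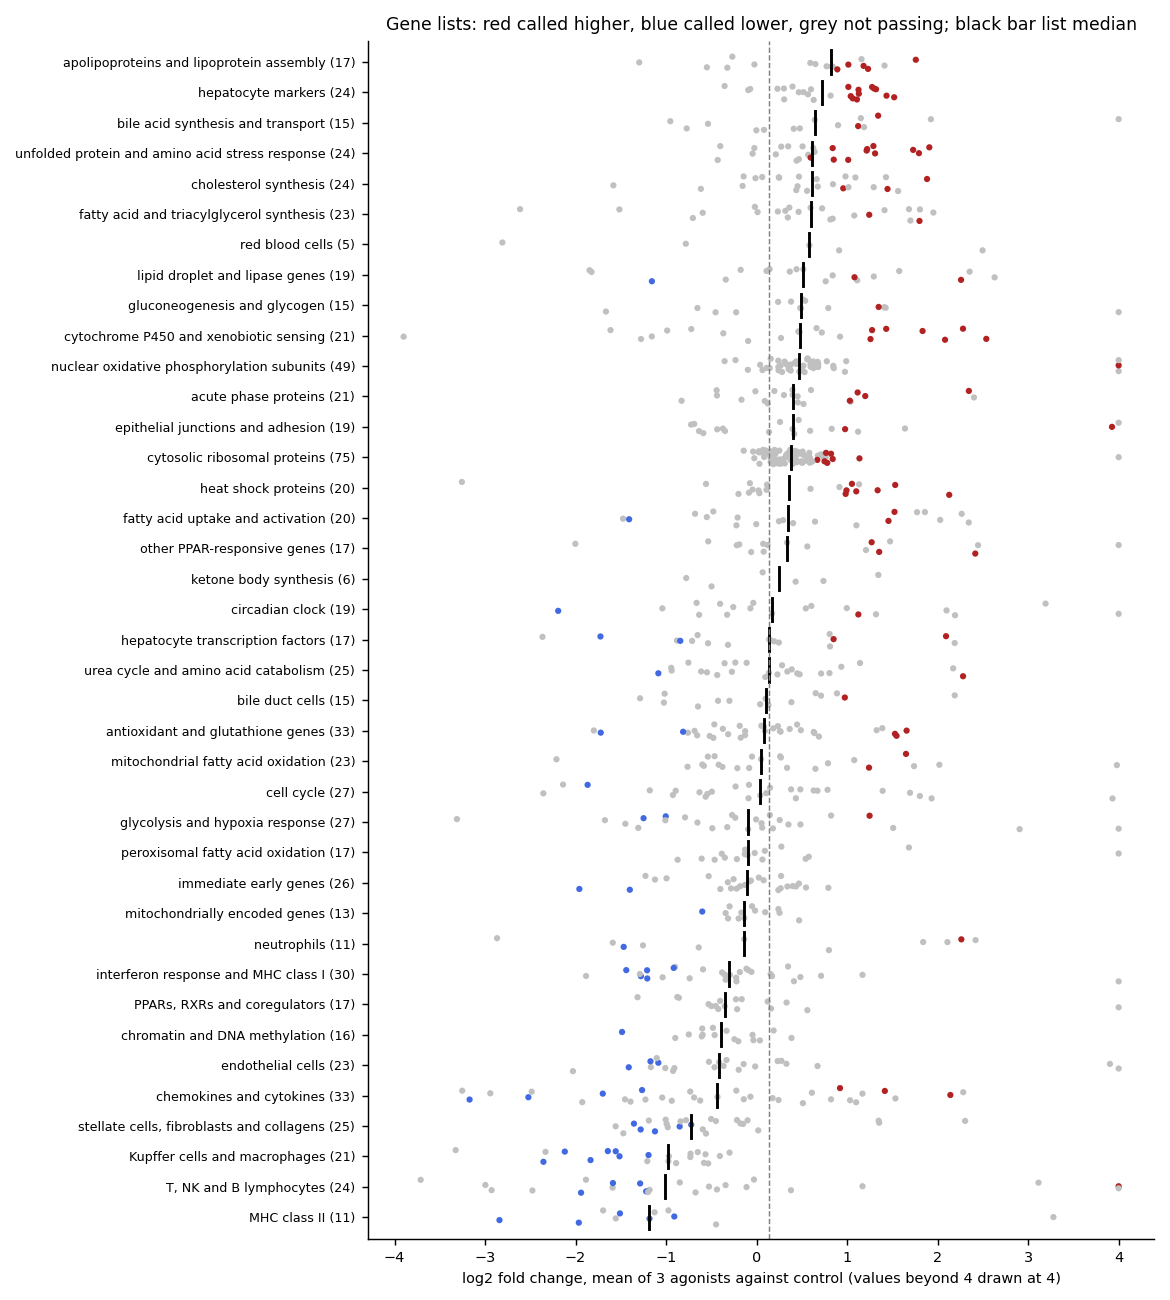
Log2 fold change of the agonist mean against control (x axis) for the tested members of 39 gene lists (y axis, number tested in brackets), with called genes in red (higher) or blue (lower), the others in grey, the list median as a black bar and the median over all genes (0.14) as a dashed line. Hepatocyte markers have 11 red and no blue points; the 21 macrophage markers all lie below 0.

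Pooling hides differences between the agonists for part of the genes. A test of WY-14643 against GW-501516 against rosiglitazone called 437 genes (2.20%). Of the 646 genes called in the pooled contrast, 117 (18.1%) were among them. Its contrast holds no control, but the controls enter the scaling, the spread and the cow terms of the same fit. Without the control of cow 581, 576 or 567 the test called 443, 449 or 238 genes. IGFBP1 showed no such difference (2.65, 2.39 and 2.92 for WY-14643, GW-501516 and rosiglitazone), nor did SLAMF7 (-1.61, -1.87 and -2.34; adjusted p = 0.92), although a p that misses the threshold does not show equal effects. TIMP1 gave 0.35, -1.83 and -2.58 (adjusted p = 3.8e-13), so its estimate was negative with GW-501516 and rosiglitazone only. SDS, which degrades serine, gave 0.25, -1.67 and -1.84 (adjusted p = 1.1e-05), and MX1, an antiviral GTPase, -0.01, -1.70 and -2.12 (adjusted p = 0.00041). SDS and MX1 missed in the pooled contrast in 4 and 3 of the 12 fits without 1 library, with adjusted p of 1.00 and 0.99 without the control of cow 581. For TIMP1, SDS and MX1 the WY-14643 library of cow 576 was the 1 agonist library above its own control, and without it the difference among agonists held for TIMP1 (adjusted p = 0.0021) but not for SDS (0.99) or MX1 (0.87). PROX1 fell most with WY-14643 (-2.50, -1.82 and -0.85, adjusted p = 6.5e-05), and TRIB3 rose most with GW-501516 (0.99, 2.73 and 1.47, adjusted p = 0.00051). CTSS and CD74 fell most with rosiglitazone, by 2.39 and 2.36, against -0.67 and -1.0 with WY-14643. Without the WY-14643 library of cow 576 the difference among agonists missed for CTSS (adjusted p = 0.31) but still passed for CD74 (0.18). For PROX1 and TRIB3 it also held without that library (5.2e-08 and 0.01). PDK4 did not differ from control in the pool, but its estimates were -0.64, 0.84 and 0.17 (adjusted p among agonists 0.0038).

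**Figure D5:**
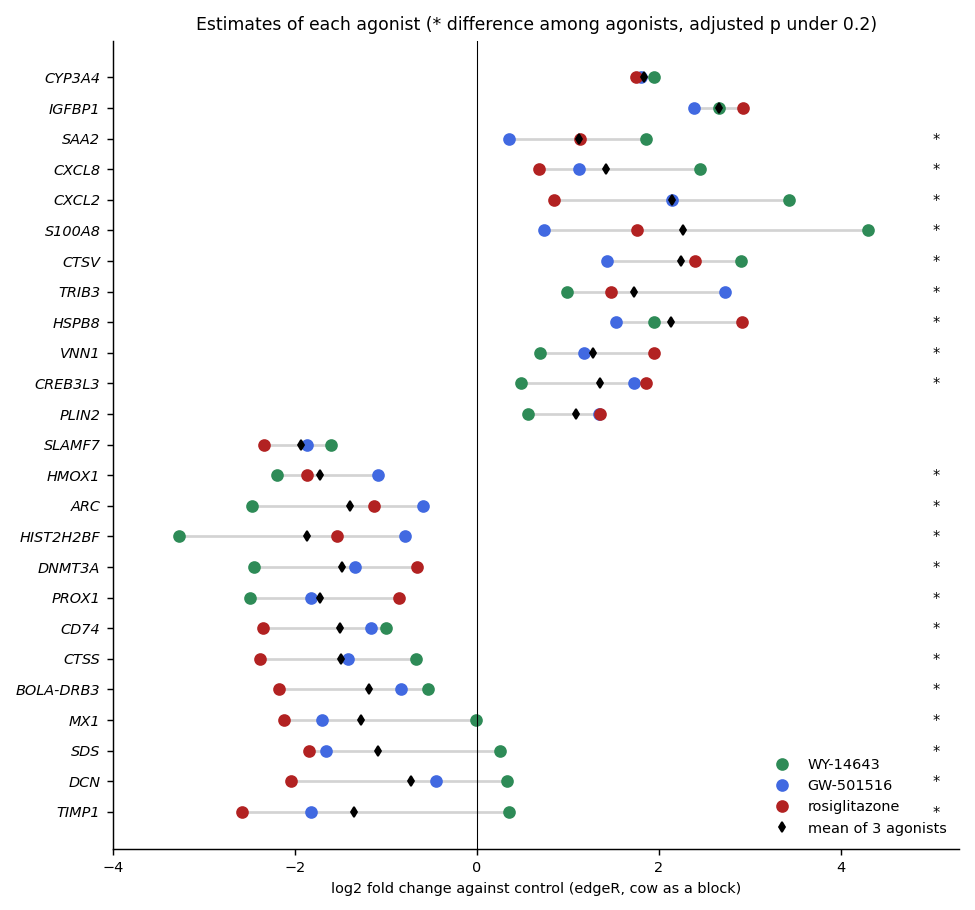
Log2 fold change against control (x axis; edgeR, cow as a block) of 25 genes for each agonist (coloured points) and for their mean (black diamond); an asterisk marks an adjusted p under 0.2 for the difference among agonists. The 3 points nearly coincide for CYP3A4 (1.75 to 1.95) and lie on both sides of 0 for TIMP1 (-2.58 to 0.35).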

How the data were processed

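The deposited table holds gene-level read counts as raw whole numbers. Per the labels and the study's methods, the authors made QuantSeq 3' FWD libraries of 16 samples, used Trimmomatic 0.39 for trimming, and aligned to the ARS-UCD1.2 genome with STAR 2.7.1. The column headers are those of STAR's gene counts with NCBI symbols, whereas the methods name StringTie 2.0 and Ensembl; no source used here gives the strand setting, so overlapping genes and near-identical copies are uncertain. The tallies of reads outside genes (29.1 to 54.1% of reads in no gene, 3.69 to 17.1% unmapped, 4.93 to 6.75% multimapping and 0.380 to 1.40% ambiguous in the 12 libraries) were left out of library sizes. Of the gene names, 26 had been turned into dates by a spreadsheet.

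Counts were analysed with R 4.3.3, edgeR 4.0.16 (TMM, glmQLFit with legacy=TRUE, glmQLFTest), limma 3.58.1 and DESeq2 1.42.0. The design had cow and 4 groups, the contrast was the mean of the 3 agonists minus control, and p-values were adjusted over 19824 genes. The study's methods name DESeq2 with a contrast of each agonist against control and state no model formula. Libraries of a cow come from 1 animal, which is where the pairing comes from; deviations of libraries of the same cow from their group means correlated between -0.03 and 0.28, above 0.1 in 9 of 18 pairs. Single library values were tested by exact permutation within cows. CPM are TMM-normalized, and log2 ratios of CPM add 1 to each value.

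Named genes were, for each direction, the 12 largest changes among called genes with a mean of at least 50 counts and all 9 agonist libraries on the same side of the own control, the 5 smallest p, and the 3 smallest p of each of 39 lists (mean of at least 10 counts); others are said to have been chosen later, and some genes that met the rule are not reported here. The members and lists were chosen with earlier results of these data known. The alternatives were other normalizations, filters and tools, the fit without the block, and each cow, library and agonist left out.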

Additional observations from a re-analysis of the deposited data

Results flagged for a closer look

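With 112 genes and 15 library measures looked at over the 9 agonist libraries, 11 genes and 8 measures had 1 library further from the others than Dixon's limit, a limit that chance passes in about 1 in 20 groups. The library concerned was the WY-14643 library of cow 576 for APOA4 (log2 ratio to the own control -0.66), GLDC (-0.40), SDS (2.11), S100A8 (6.47), MX1 (1.49) and COL4A2 (0.39). The same library held the highest summed markers of macrophages (2294 CPM), lymphocytes (807.79 CPM), neutrophils (2170 CPM), stellate cells (4946 CPM) and red cells (109 CPM). The GW-501516 library of cow 576 stood apart for SCIN (-6.05), MMP19 (-4.23), RXRA (-2.11), the RN18S1 share (63.8%) and the number of detected genes (9993, or 9860 at equal depth). The rosiglitazone library of cow 581 stood apart for CXCL9 (-5.38) and that of cow 576 for VNN1 (3.39). The causes were not tested.

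For 32 genes the 3 agonists differed by edgeR's test among them. The adjusted p was 3.8e-13 for TIMP1, 6.9e-10 for S100A8, 6.1e-09 for DCN, 7.7e-07 for CXCL2, 1.5e-06 for HIST2H2BF, 3.4e-06 for CXCL8, 1.1e-05 for SDS, 4.3e-05 for CTSS, 6.5e-05 for PROX1, 0.00041 for MX1 and 0.00051 for TRIB3. It was 0.0017 for SAA2, 0.0021 for BOLA-DRB3, 0.0031 for TES, 0.0038 for PDK4, 0.0052 for DNMT3A and 0.0062 for ATP8. It was 0.012 for CTSV, 0.014 for ARC, 0.016 for HSPB8, 0.021 for CD5L, 0.038 for LIPA, 0.045 for SLC51B, 0.066 for HSPA1A, 0.070 for HMOX1, 0.081 for CD74, 0.10 for CREB3L3, 0.15 for C1QC, 0.16 for NES, 0.17 for IL7R and VNN1 and 0.19 for NDUFA2. Without the WY-14643 library of cow 576, 23 of the 32 still differed; S100A8, SDS, MX1, CTSS, LIPA, TES, CREB3L3, VNN1 and NDUFA2 did not pass. Without the GW-501516 library of cow 576, 31 of the 32 did.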

How the results depend on the processing

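The main counts were 646 genes at an adjusted p under 0.2, 274 under 0.05 and 437 for the difference among agonists. With no replicate block, that is without the pairing by cow, they were 129, 30 and 81. With legacy=FALSE they were 400, 59 and 243, with filterByExpr 95, 1 and 15, with limma voom 211, 18 and 52 and with cow 574 included 203, 75 and 72. With 1 term for any agonist the first 2 counts were 123 and 23, with DESeq2 1142 and 466, without GW-501516 1824 and 831, without rosiglitazone 274 and 129 and without the 3 libraries that carry an extra mark 87 and 49; without WY-14643 the first was 423. Without the control of cow 581 and the GW-501516 library of cow 576, an alternative added after seeing the data like both forms of voom, the counts were 380, 155 and 939, and voom with sample weights gave 108 and 711 for the last 2. Leaving out 1 cow or 1 library gave 48 to 2505, 29 to 1078 and 168 to 853; for the first count the lowest value came without cow 581 and the highest without cow 576. The causes were not tested.

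Over the 112 genes, 2877 values under the alternatives kept their direction and side of the threshold, 801 lost significance, 6 gained it and 12 turned sign. The signs that turned belonged to 4 genes. The log2 fold change of ANGPTL4 was -0.0033 with DESeq2, -0.0037 with RLE, -0.031 with upper quartile scaling, -0.038 without the marked libraries and -0.063 with cow 574. The log2 fold change of PDK4 was -0.0010 at equal depth, -0.25 without GW-501516, -0.018 without the control of cow 581 and the GW-501516 library of cow 576, and between -0.051 and 0.37 when 1 cow or library was left out. Without the marked libraries the log2 fold change of ATP8 was 0.039 (-0.60 with all libraries, where it was called) and the log2 fold change of ALB -0.21 (0.57 with all libraries).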

Other observations

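The 4 libraries of cow 574 entered no main test, only the alternative that included them. Of the 391 genes called higher, 347 had at least 10 counts in that cow and 240 of them (69.2%) had an agonist mean above its control, against 53.5% of the genes not called. Of the 255 genes called lower, 236 had at least 10 counts and 134 were below the control, that is, 43.2% were above it. IGFBP1 had a log2 ratio of 0.72 in cow 574, ANGPTL8 2.30, HMOX1 -0.80, SLAMF7 -0.66 and LBP -0.34, the last on the other side of 0 than in the tested cows. LBP was not alone in this. APOA4 (-1.02), HSPB8 (-0.61) and PLIN2 (-0.56) were called higher but lay below the control of cow 574. C1QC (2.08), IL7R (1.03) and BOLA-DRB3 (0.74) were called lower but lay above it.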
